A study of Mus musculus with 24 samples.

Results

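Metallothioneins and the genes that handle zinc, superoxide and thiols next to them were followed in sorted mouse lung cells after irradiation, with and without an antibody against neutrophils. The 9 genes were taken by name (Mt1, Mt2, Slc39a14, Slc30a1, Mtf1, Sod1, Sod2, Sod3 and Txn1) out of 48795 gene identifiers in each of 2 tables. All 9 were present in both tables and all 9 passed the filter on low values. They were chosen by name with the normalised counts and log2 changes of these same libraries already known, so no count over them is independent evidence of a direction.

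All mice were female Balb/c animals aged 8 weeks, and each group had 4 libraries. Sham mice were sham-irradiated and got a control IgG. Irradiated mice got 13 Gy to the lungs and the control IgG. Depleted mice got the same 13 Gy and daily anti-Ly6G, an antibody against a surface protein of neutrophils, in place of the control IgG. Lungs were taken at day 7, and cells negative for CD45, CD31 and Ter119 were sorted into an EpCAM+ (epithelial) and an EpCAM- (mesenchymal) fraction, which made 24 libraries in 6 groups. No group received anti-Ly6G without irradiation, so the effect of the antibody alone was not measured. The gate is that of the cell type entries; the written protocol repeats CD45 where those entries have CD31. In bulk RNA from such a sort, more cells of one kind and more RNA per cell cannot be told apart.

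Metallothioneins are small, cysteine-rich proteins that bind zinc and copper and also react with oxidants. Their genes are switched on by zinc through the zinc-sensing transcription factor Mtf1, which binds metal response elements in their promoters, and also by glucocorticoids and inflammatory cytokines. Superoxide dismutases turn superoxide into hydrogen peroxide, which peroxiredoxins then remove with electrons passed on by thioredoxin.

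Mt1 (ENSMUSG00000031765; chromosome 8, 94179082 to 94180327, plus strand) and Mt2 (ENSMUSG00000031762; chromosome 8, 94172664 to 94173568, plus strand) are protein-coding neighbours on GRCm38. Slc30a1, a zinc exporter and another known target of Mtf1, lies on chromosome 1 (ENSMUSG00000037434; 191906767 to 191913247, plus strand). The promoter windows of these 3 genes are printed because they hold the core of the metal response element, TGCACNC or TGCGCNC. Each runs from 250 bases before to 50 bases after the RefSeq start (GRCm38.p6), 5′ to 3′ on the gene's strand, with matches on either strand in capitals.
Mt1, chr8:94178839-94179138: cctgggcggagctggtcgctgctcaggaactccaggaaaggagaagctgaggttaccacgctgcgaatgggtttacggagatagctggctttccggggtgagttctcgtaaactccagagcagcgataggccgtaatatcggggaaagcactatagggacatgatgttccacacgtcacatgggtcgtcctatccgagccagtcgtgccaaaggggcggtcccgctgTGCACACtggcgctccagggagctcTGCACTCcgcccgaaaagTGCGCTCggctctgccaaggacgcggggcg
Mt2, chr8:94172368-94172667: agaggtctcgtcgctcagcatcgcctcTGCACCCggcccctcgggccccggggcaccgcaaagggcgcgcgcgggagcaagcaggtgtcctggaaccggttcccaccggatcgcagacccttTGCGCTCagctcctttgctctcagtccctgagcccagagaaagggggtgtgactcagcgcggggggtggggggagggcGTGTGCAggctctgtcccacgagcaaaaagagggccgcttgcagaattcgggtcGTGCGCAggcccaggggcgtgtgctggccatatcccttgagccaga
Slc30a1, chr1:191906531-191906830: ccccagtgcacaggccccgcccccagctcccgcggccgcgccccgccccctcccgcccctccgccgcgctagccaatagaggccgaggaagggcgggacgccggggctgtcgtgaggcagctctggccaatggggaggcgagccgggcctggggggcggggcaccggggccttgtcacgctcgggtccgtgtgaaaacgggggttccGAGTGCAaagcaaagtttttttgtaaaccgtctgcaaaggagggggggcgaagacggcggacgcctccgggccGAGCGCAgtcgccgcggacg
The Mt1 window held 3 matches, with first bases at -23, 3 and 21 from the RefSeq start. The Mt2 window held 4 matches, at -223, -128, -50 and 5. The Slc30a1 window held 2, at -43 and 31. For these 3 genes the RefSeq start is not the gene start printed above, so the positions hold for the RefSeq start only. The Mt2 window ends at 94172667 beside a printed gene start of 94172664, so nearly all of it lies before that gene start. The windows of Mtf1, Sod1, Sod2 and Txn1 held none, and no window was matched for Slc39a14 or Sod3. Of 32851 promoter windows of this length, 25.7% held at least 1 match and 1.97% held at least 3. The letters TTCNNNGAA, to which STAT factors can bind, stood at 1 position of the Sod2 window and in none of the other 6 windows (8.3% of all windows hold them). The antioxidant response element core TGACNNNGC stood once each in the windows of Slc30a1, Mt2 and Sod1 (12.4% of all windows). A match is a description of the letters in the window, and binding was not measured.

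Values are the deposited normalised counts, in which each library's counts were scaled by 1 factor. Each table has its own scale, so levels are compared only inside a table. Changes are differences of log2(normalised count + 1) with the standard error of a limma fit across all genes of a table, which understate the change of low values, and a gene was called at a Benjamini-Hochberg adjusted p under 0.05. Epithelial libraries held between 8159062 and 13373329 reads, mesenchymal libraries between 7366672 and 11408083. The depleted epithelial libraries held 8159062 to 9267632 reads and the irradiated ones 10884703 to 13373329, so depth differed between those groups, and its part in the results was not tested. A count of 0 allows up to 3 reads, worth between 2.36 and 3.81 normalised counts for epithelial and between 2.48 and 3.66 for mesenchymal libraries, for counting error only. The fractions carried their defining markers, each given on the scale of its table. Epcam averaged 1151 in epithelial and 8.55 in mesenchymal sham libraries, and Col1a1 averaged 34972 in mesenchymal and 1203 in epithelial ones. Markers of the other fraction were thus also counted in each table.

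Mt1 was highest in the depleted mice in both fractions. Epithelial normalised counts were 235.1, 288.6, 334.9 and 314.3 in the sham libraries, 405.2, 465.7, 352.0 and 516.9 in the irradiated libraries and 726.0, 622.8, 479.6 and 753.8 in the depleted libraries. Every irradiated library lay above every sham library, while depleted replicate 3 fell inside the range of the irradiated group. The means were 293.2 ± 43.1, 434.9 ± 71.7 and 645.6 ± 124.2 (SD, n = 4).

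Mesenchymal Mt1 read 1217.1, 963.2, 1117.6 and 1150.0 in the sham libraries, 1682.4, 1464.7, 1698.6 and 2524.7 in the irradiated libraries and 4354.5, 3608.0, 2736.9 and 5462.7 in the depleted libraries. The 3 groups did not overlap. Irradiated replicate 4 stood above the other irradiated libraries, and depleted replicate 3 was the lowest of its group.

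Mt2 showed larger log2 changes than Mt1 in every comparison of the 3 groups, a contrast between genes that was not tested. Its epithelial values were 52.69, 59.42, 61.62 and 58.28 in the sham libraries, 71.44, 115.8, 75.25 and 123.8 in the irradiated libraries and 344.5, 226.3, 259.6 and 503.7 in the depleted libraries. The groups did not overlap, and the irradiated libraries fell into a lower and a higher pair. Mesenchymal Mt2 read 407.7, 359.9, 357.4 and 400.0 in the sham libraries, 721.0, 717.0, 632.6 and 861.1 in the irradiated libraries and 3492.6, 2774.0, 1820.7 and 4349.0 in the depleted libraries. Here too no groups overlapped, and the SD of the depleted libraries was 1073 around a mean of 3109 (n = 4).

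**Figure D1:**
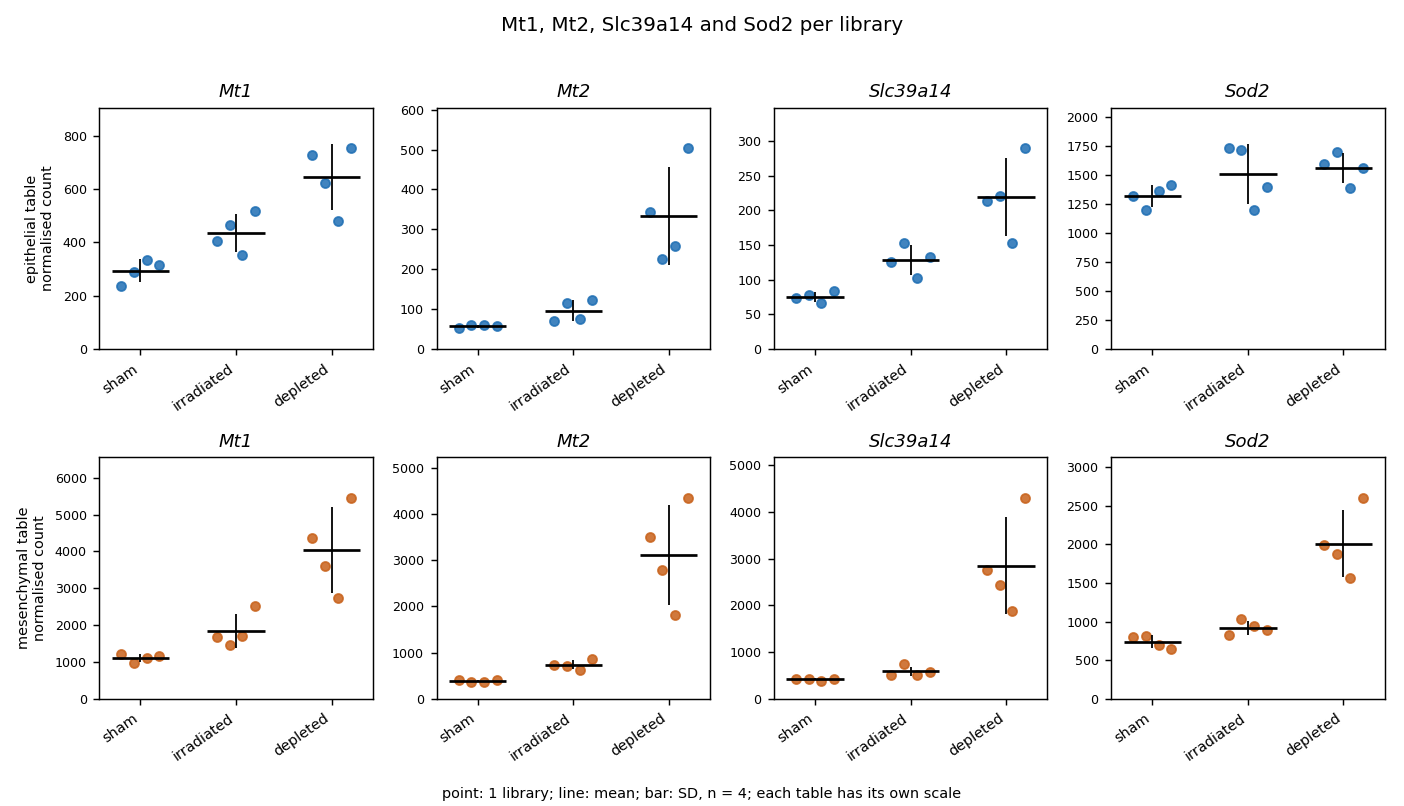
Normalised counts of Mt1, Mt2, Slc39a14 and Sod2 in each library of the sham, irradiated and depleted groups, with epithelial libraries in the upper row and mesenchymal libraries in the lower row, each on its own axis from 0. Points are libraries, lines are means and bars are SD (n = 4); the 4 depleted mesenchymal libraries lie above all irradiated and sham ones for each of the 4 genes, while the epithelial groups of Sod2 overlap.

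Between irradiated and sham mice, Mt2 rose in the mesenchymal table (log2 change 0.93 ± 0.215, adjusted p = 0.0401). Mt1 there changed by 0.70 ± 0.207 (adjusted p = 0.0827). The epithelial log2 changes were 0.56 ± 0.162 for Mt1 (adjusted p = 0.0939) and 0.69 ± 0.237 for Mt2 (adjusted p = 0.166), which did not pass the test although no libraries overlapped. The mesenchymal Mt2 call passed in 10 of 22 alternatives (adjusted p 0.000153 to 0.455), and it ended without any 1 of 10 libraries: each sham and irradiated library, and depleted replicates 1 and 2 (0.0504 to 0.118). It also ended with no filter and with leukocyte markers as a covariate.

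Between depleted and irradiated mice, Mt2 rose in both fractions, by 1.75 ± 0.237 in the epithelial table (adjusted p = 0.00616) and by 2.02 ± 0.215 in the mesenchymal table (adjusted p = 0.000832). Mesenchymal transcripts were also counted in the epithelial table. Col1a1 averaged 1580 in its depleted libraries and 38157 in the depleted mesenchymal ones, each on the scale of its table. The part of mesenchymal cells in the epithelial changes was not tested. Mt1 rose in the mesenchymal table by 1.12 ± 0.207 (adjusted p = 0.0174), and its epithelial change was 0.56 ± 0.162 (adjusted p = 0.168). Against sham, both genes rose in both fractions after depletion, with log2 changes of 1.13 ± 0.162 for Mt1 and 2.44 ± 0.237 for Mt2 in the epithelial table and of 1.82 ± 0.207 and 2.96 ± 0.215 in the mesenchymal table. The comparisons with the irradiated and with the sham group share the depleted libraries. The mesenchymal Mt1 call against irradiated mice held in 17 of 22 alternatives (adjusted p 5.1e-07 to 0.0644) and ended without irradiated replicate 1 or 3 or depleted replicate 1. The rest of the 5 alternatives that ended it changed the analysis and left out no library. The epithelial Mt2 call held in 21 of 22 (1.76e-11 to 0.0904) and ended when the 2 groups were fitted alone.

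The share of Mt2 in the summed metallothionein counts moved with the groups. Epithelial Mt2 made up 16.6% ± 1.31 of Mt1 plus Mt2 in sham, 18.0% ± 2.21 in irradiated and 33.5% ± 5.61 in depleted libraries (SD, n = 4). The mesenchymal shares were 25.6% ± 1.26, 28.9% ± 3.27 and 43.1% ± 2.12. The depleted libraries (26.7% to 40.1% and 40.0% to 44.5%) lay above all others of their table, whereas sham and irradiated libraries overlapped in both. The 2 genes differ in length, so this is a share of counts and not of molecules.

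**Figure D2:**
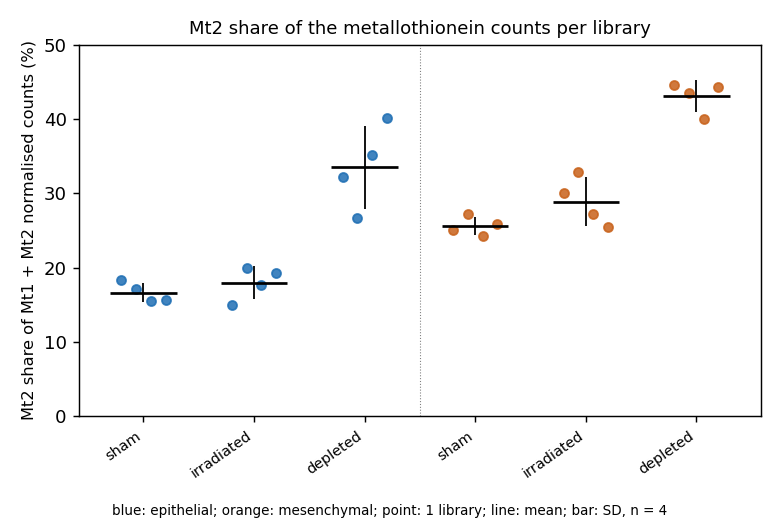
Mt2 as a percentage of the summed Mt1 and Mt2 normalised counts in each library, with epithelial groups on the left and mesenchymal groups on the right of the dotted line. Points are libraries, lines are means and bars are SD (n = 4); depleted libraries reach 26.7% to 40.1% and 40.0% to 44.5%, above the sham and irradiated libraries of their table.

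Slc39a14 (ENSMUSG00000022094; chromosome 14, 70303469 to 70351425, minus strand) encodes ZIP14, which carries zinc and also iron and manganese into cells. Epithelial libraries read 73.18, 77.46, 66.98 and 84.3 in the sham group, 125.3, 153.6, 102.0 and 132.6 in the irradiated libraries and 213.2, 219.9, 153.5 and 289.6 in the depleted libraries. All irradiated libraries exceeded all sham libraries, and depleted replicate 3 lay just under the highest irradiated library. Mesenchymal libraries read 416.9, 431.1, 382.6 and 433.2 in the sham libraries, 516.8, 737.5, 510.6 and 575.7 in the irradiated libraries and 2751.6, 2442.0, 1883.5 and 4310.7 in the depleted libraries. The depleted mesenchymal libraries stood far above both other groups, with replicate 4 the highest.

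Slc39a14 rose between depleted and irradiated mesenchymal libraries by 2.23 ± 0.209 (adjusted p = 0.000312), place 20 of 16624 tested genes when ordered by log2 change. Its epithelial change in that comparison was 0.75 ± 0.162 (adjusted p = 0.0524). Between irradiated and sham mice it rose in the epithelial table by 0.75 ± 0.162 (adjusted p = 0.0167), and its mesenchymal change was 0.48 ± 0.209 (adjusted p = 0.222). Against sham it rose in the depleted mice in both fractions, by 1.49 ± 0.162 (adjusted p = 1.77e-05) and 2.71 ± 0.209 (adjusted p = 1.29e-05). The epithelial call after irradiation held in 18 of 22 alternatives (adjusted p 0.00225 to 0.779). It ended without sham replicate 3, irradiated replicate 2 or irradiated replicate 4, and with leukocyte markers as a covariate.

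Slc30a1 encodes ZnT1, which moves zinc out of the cell across the plasma membrane. Its epithelial values were 161.0, 174.0, 177.7 and 200.9 in sham, 194.8, 253.7, 211.2 and 206.6 in irradiated and 184.0, 219.9, 220.1 and 184.3 in depleted libraries. Mesenchymal values were 160.3, 138.2, 112.1 and 123.9 in sham, 181.5, 196.9, 151.6 and 148.8 in irradiated and 159.9, 144.0, 139.2 and 131.0 in depleted libraries. The groups overlapped in every comparison and no change passed the test, the largest being 0.35 ± 0.127 in irradiated against sham mesenchyme (adjusted p = 0.131).

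Mtf1 (ENSMUSG00000028890; chromosome 4, 124802104 to 124849800, plus strand), the zinc sensor, also passed no test. It read 378.6, 321.5, 322.4 and 327.8 in epithelial sham, 247.6, 289.2, 349.6 and 327.2 in irradiated and 309.7, 340.7, 278.7 and 274.0 in depleted libraries. The mesenchymal values were 224.2, 211.0, 217.0 and 227.8 in sham, 218.7, 237.9, 244.1 and 263.4 in irradiated and 308.5, 233.0, 237.7 and 268.1 in depleted libraries. Every depleted mesenchymal library lay above every sham library (0.24 ± 0.095, adjusted p = 0.1).

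Sod2 (ENSMUSG00000006818; chromosome 17, 13006846 to 13040063, plus strand) is the manganese superoxide dismutase of mitochondria. In the mesenchymal table it read 799.2, 815.0, 700.6 and 644.4 in the sham libraries, 822.1, 1034.5, 941.9 and 887.9 in the irradiated libraries and 1985.1, 1867.9, 1569.4 and 2604.4 in the depleted libraries. The groups did not overlap, but the highest sham library (815.0) lay just below the lowest irradiated one (822.1). Epithelial Sod2 read 1317.2, 1195.9, 1358.4 and 1416.5 in sham, 1732.3, 1717.6, 1198.4 and 1396.3 in irradiated and 1592.4, 1696.9, 1388.1 and 1560.2 in depleted libraries. These groups overlapped, and the irradiated libraries split into 2 high and 2 low ones.

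Sod2 rose between depleted and irradiated mesenchyme by 1.10 ± 0.131 (adjusted p = 0.000608), from a mean of 921.6 ± 89.8 to 2007 ± 435 (SD, n = 4). Against sham it rose in the depleted mesenchyme by 1.42 ± 0.131 (adjusted p = 1.1e-05), and the epithelial change was 0.24 ± 0.107 (adjusted p = 0.186). Its mesenchymal change after irradiation alone was 0.32 ± 0.131 (adjusted p = 0.184). The epithelial changes were 0.18 ± 0.107 for irradiated against sham (adjusted p = 0.507) and 0.06 ± 0.107 for depleted against irradiated (adjusted p = 0.886).

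Sod1 (ENSMUSG00000022982; chromosome 16, 90220754 to 90226329, plus strand) is the copper and zinc enzyme of the cytosol. Its epithelial values were 1686.0, 1647.9, 1565.6 and 1499.8 in sham, 1595.3, 1679.0, 1836.8 and 1738.7 in irradiated and 1731.5, 1690.6, 1522.4 and 1955.1 in depleted libraries. These groups overlapped and no epithelial change passed the test. The mesenchymal libraries read 725.2, 640.5, 708.7 and 790.0 in sham, 754.0, 687.4, 739.4 and 673.3 in irradiated and 800.4, 822.4, 809.8 and 831.5 in depleted libraries. The depleted libraries lay closely together above both other groups, with a log2 change against irradiated of 0.19 ± 0.0697 that did not pass the test (adjusted p = 0.151).

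Sod3 (ENSMUSG00000072941; chromosome 5, 52363791 to 52371418, plus strand) is the secreted form that binds to the extracellular matrix. In the mesenchymal table it read 8197.2, 7703.7, 9740.0 and 10529.0 in sham, 7793.2, 6146.9, 8110.5 and 7210.6 in irradiated and 7462.7, 7413.1, 9178.0 and 6611.7 in depleted libraries. These groups overlapped and no mesenchymal change passed the test. Epithelial Sod3 read 554.2, 607.0, 637.7 and 521.4 in sham, 521.6, 527.1, 659.5 and 533.7 in irradiated and 526.3, 434.7, 467.2 and 391.3 in depleted libraries. It fell between depleted and sham mice (-0.35 ± 0.0956, adjusted p = 0.0235) although 1 depleted library reached into the sham range. That call held in 17 of 22 alternatives (adjusted p 0.0116 to 0.239) and ended without sham replicate 2 or 3, without depleted replicate 2 or 4, and with the leukocyte covariate.

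Txn1 (ENSMUSG00000028367; chromosome 4, 57943373 to 57956411, minus strand) encodes cytosolic thioredoxin. In the mesenchymal table it read 378.3, 350.8, 300.8 and 369.2 in sham, 395.1, 339.2, 361.1 and 285.4 in irradiated and 475.5, 441.8, 478.4 and 491.8 in depleted libraries. The depleted libraries lay above all others, while sham and irradiated libraries overlapped. Txn1 rose there between depleted and irradiated mice by 0.46 ± 0.0977 (adjusted p = 0.0206), a call that held in 19 of 22 alternatives (adjusted p 0.00238 to 0.0701) and ended without irradiated replicate 4, depleted replicate 1 or depleted replicate 4.

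Against sham it rose in the depleted mesenchyme by 0.44 ± 0.0977 (adjusted p = 0.0073). Epithelial Txn1 read 973.8, 1027.2, 1020.8 and 961.7 in sham, 933.7, 837.5, 883.6 and 903.5 in irradiated and 906.7, 897.4, 963.8 and 1039.8 in depleted libraries. All irradiated libraries lay below all sham libraries, but the change of -0.16 ± 0.0587 did not pass the test (adjusted p = 0.164). Its processed pseudogene Txn-ps1, whose reads could be confused with those of Txn1, was at most 0.89 in any library of the epithelial table and at 0 in the mesenchymal table.

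**Figure D3:**
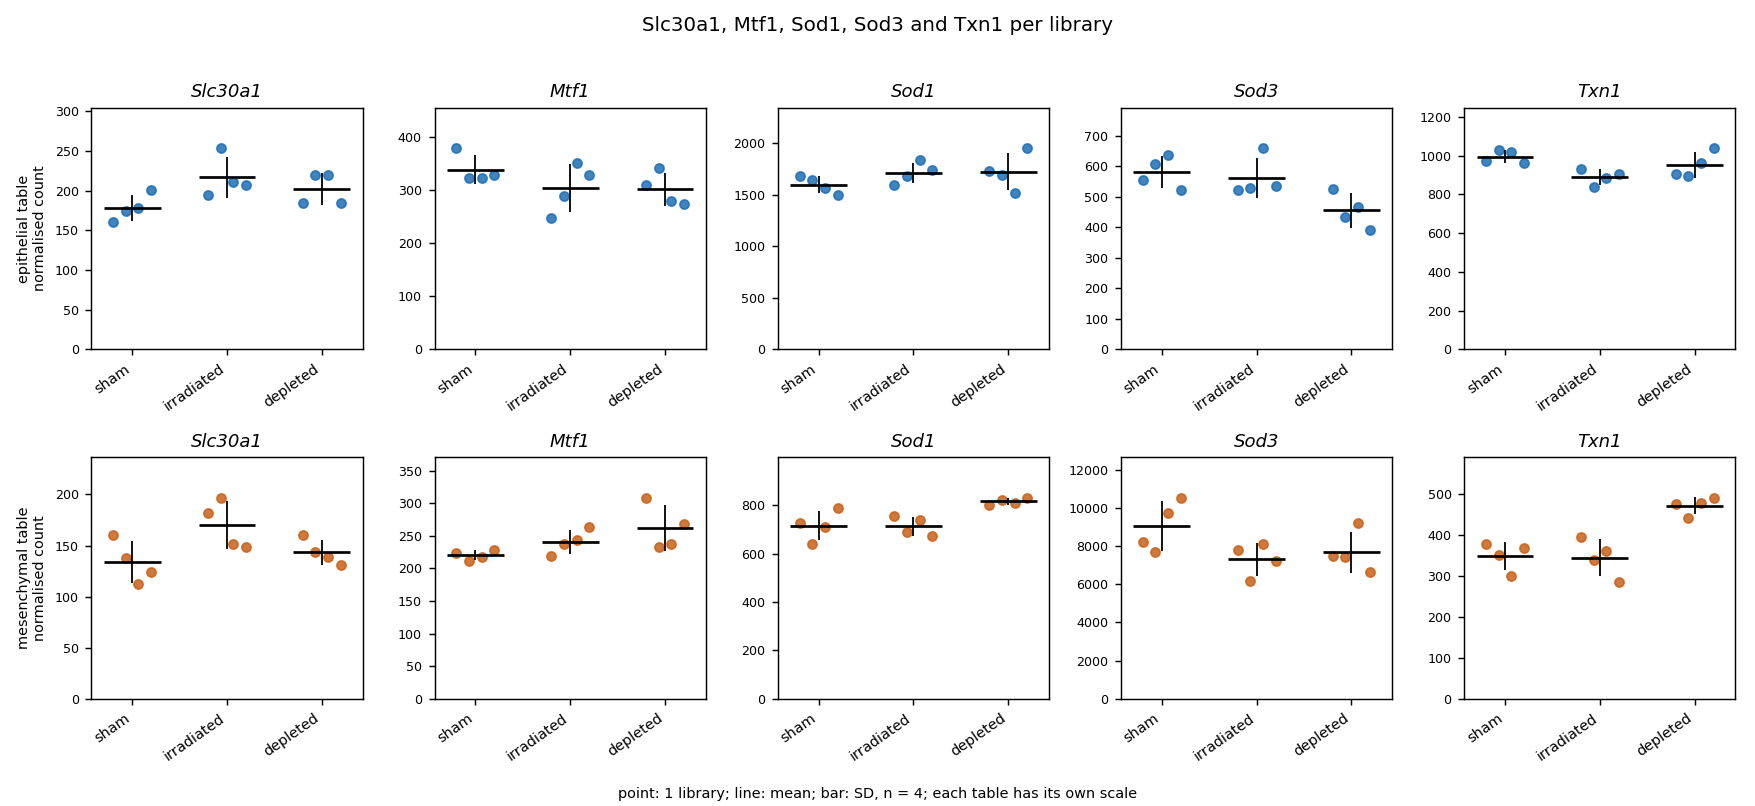
Normalised counts of Slc30a1, Mtf1, Sod1, Sod3 and Txn1 in each library, with epithelial libraries in the upper row and mesenchymal libraries in the lower row, each on its own axis from 0. Points are libraries, lines are means and bars are SD (n = 4); the depleted mesenchymal libraries of Sod1 (800.4 to 831.5) and Txn1 (441.8 to 491.8) lie above the other groups, and the remaining panels show overlapping groups or smaller shifts.

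Counted over the 9 genes, 5 rose and none fell between depleted and irradiated mesenchyme, where 2.69% of all tested genes were called. The median log2 change of the 9 was 0.46, beside -0.00 over all tested genes. The libraries did not overlap for 6 of the 9, beside 10% of all genes. For the same comparison in epithelium 1 of 9 rose (Mt2), where 0.475% of all genes were called, the median was 0.06 beside 0.00, and 1 of 9 did not overlap beside 6.41%.

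Irradiation against sham gave 1 called gene of 9 in epithelium (Slc39a14; 3.14% of all genes called) and 1 of 9 in mesenchyme (Mt2; 3.8% called). The libraries did not overlap for 4 of 9 in epithelium, beside 8.83% of all genes, and for 4 of 9 in mesenchyme, beside 11.8%. Depleted against sham gave 3 that rose and 1 that fell in epithelium (11.3% called; 3 of 9 without overlap beside 16.7%) and 5 that rose in mesenchyme (15.2% called; 7 of 9 without overlap beside 19.3%).

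**Figure D4:**
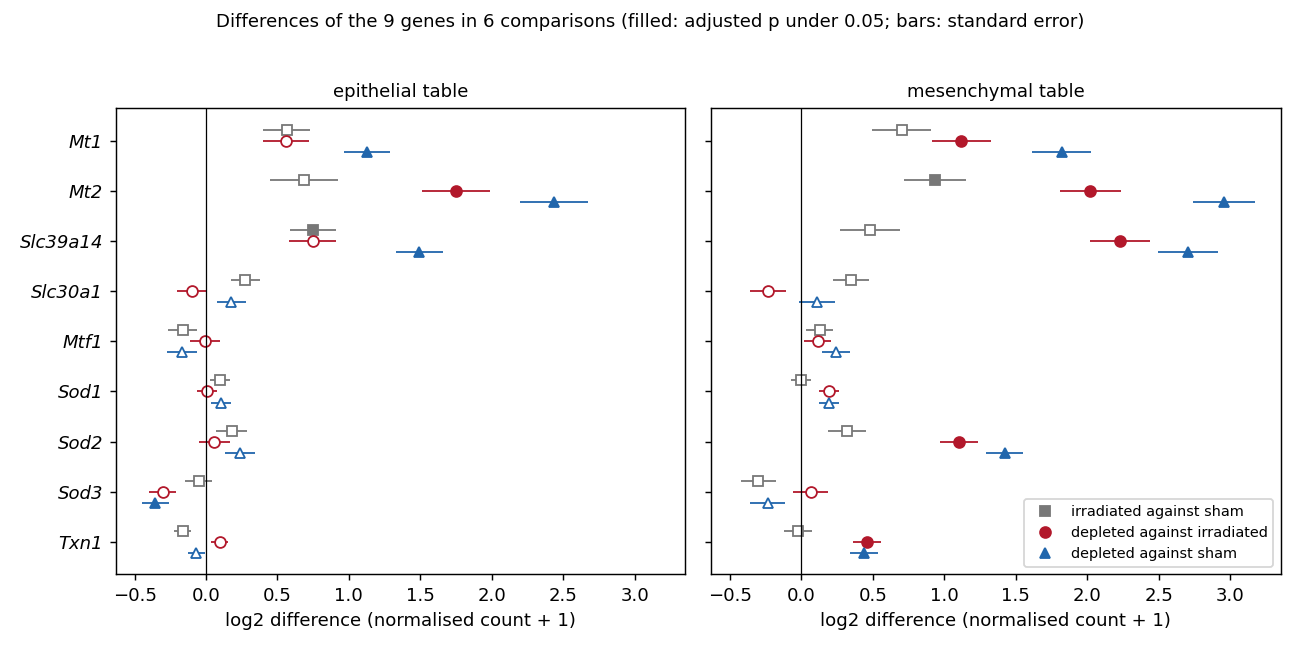
Log2 change with its standard error for each of the 9 genes in the epithelial and mesenchymal tables, for irradiated against sham, depleted against irradiated and depleted against sham. For depleted against irradiated the mesenchymal changes of Slc39a14 (2.23), Mt2 (2.02), Mt1 (1.12), Sod2 (1.10) and Txn1 (0.46) passed the test, and of the epithelial changes that of Mt2 (1.75) passed.

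The difference between the responses of the fractions was tested in 1 limma fit of all 24 libraries on 15092 genes. For depleted against irradiated, the epithelial response was smaller than the mesenchymal one for Slc39a14 (-1.48 ± 0.281, adjusted p = 0.0152) and for Sod2 (-1.04 ± 0.181, adjusted p = 0.00515). These were 2 of 9 genes, where 0.596% of all genes were called. The response differences of Mt1 (-0.56 ± 0.278, adjusted p = 0.467), Mt2 (-0.27 ± 0.341, adjusted p = 0.839) and Txn1 (-0.36 ± 0.114, adjusted p = 0.184) did not pass the test, so the calls made in 1 fraction only do not show that these genes responded differently. For irradiated against sham limma called 0 of 9 differences (0.629% of all genes called), with no member at an unadjusted p under 0.05 and adjusted p of 0.389 to 0.898, and edgeR and DESeq2 also called 0. The differences of Slc30a1 (0.14), Mtf1 (-0.12), Sod1 (-0.19) and Sod3 (-0.37) did not pass either (adjusted p of at least 0.402). The Slc39a14 difference held in 32 of 33 alternatives (adjusted p 3.97e-05 to 0.0574) and ended with the leukocyte covariate. The labels do not tie the 2 fractions to the same mice, and the fit treats them as separate samples. Depleted replicate 3 was the lowest and replicate 4 the highest of its group for Mt1 and for Slc39a14 in both fractions.

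Levels of different genes can be compared only per length of transcript, and the order depended on the length used. With the length of every annotated exon, the epithelial sham order per kb ran from Txn1 (947.5 normalised counts per kb) over Sod1 (403.0), Mt1 (235.4), Sod3 (155.2), Sod2 (132.1), Mt2 (98.7), Mtf1 (37.9) and Slc30a1 (34.0) to Slc39a14 (7.16). Sod3 and Sod2 overlapped, as did Mtf1 and Slc30a1. With the length of basic protein-coding transcripts, a choice added after the first order had been seen, Sod1 came first at 2495.8 per kb, since its annotated exons shrink from 3970 to 641 bases, and Txn1 came next.

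In the mesenchymal sham libraries Sod3 was first under both lengths (2419.1 per kb). Mt1 (892.4) and Mt2 (648.4) followed directly with all annotated exons, and with basic transcripts Sod1 (1117.1) stood between them and Sod3. In the depleted mesenchymal libraries Mt2 (5287.5) and Mt1 (3242.8) stood above Sod3 (2050.9), although Mt2 overlapped Mt1 and Mt1 overlapped Sod3. Both lengths are the same for Mt2 (588 bases), Mt1 (1246) and Sod3 (3738), so the second length could not change their order. The annotated exons of Mt1 cover its whole gene of 1246 bases, so its level per kb would be higher with a spliced length.

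Over the 12 mesenchymal libraries the log2 values of Mt1 ran closely with those of Mt2 (Pearson r = 0.98, and 0.881 after the group means were removed). Outside the 9 genes, the most alike among 11471 genes were Mbd1 and Rtn4rl2 (r = 0.962 each), Irs2 (0.961), Triap1 (0.96) and Acvr1b (0.954). In the epithelial table Mt1 ran with Slc39a14 (r = 0.951) and Mt2 (0.929), and outside the 9 genes most closely with Serpina3n (0.944), Ogfrl1 (0.942), Abhd5 (0.939), Dyrk3 (0.939) and Glul (0.937), out of 11516 genes. Serpina3n, a secreted serine protease inhibitor of the acute phase, averaged 77.6 in sham, 225.6 in irradiated and 1000.5 in depleted libraries. These correlations describe libraries that share groups and size factors.

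Sod2 had different neighbours in the 2 tables. In the mesenchymal table Slc39a14 was at r = 0.988 and the closest others were Ctps (0.986), Slc16a1 (0.983), Acvr1b (0.982), Cyp1b1 (0.98) and Ereg (0.975). Ereg, an EGF receptor ligand, averaged 22.58 in sham, 38.31 in irradiated and 132.4 in depleted mesenchyme. In the epithelial table the closest were the chemokines Cxcl2 (0.963) and Cxcl1 (0.941), with Rcan1 (0.937), Nfkbia (0.9) and Zfp36 (0.898). With the group means removed, Cxcl2 was still at 0.948 and Cxcl1 at 0.923, so Sod2 and these chemokines varied together among libraries of the same group. Whether the 2 tables differ in these correlations was not tested.

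The other genes of zinc transport were counted from lists of importers and exporters. Between depleted and irradiated mesenchyme, where 2.69% of all genes were called, 1 of 11 importers rose, Slc39a1, from 1385 to 1840 (0.41 ± 0.0673, adjusted p = 0.00328), and 0 of 5 exporters were called. After irradiation alone (3.8% of all genes called) 1 of 11 importers rose in the mesenchyme, Slc39a4, from 5.48 to 14.3, and 1 of 5 exporters fell, Slc30a5 (-0.37 ± 0.0757). The sham mean of Slc39a4 was under the filter value of 10 and not far above the 2.48 to 3.66 that a count of 0 allows. This gene was thus tested mainly through the groups where it was higher, which favoured a rise. For epithelium 0 of 10 importers and 0 of 6 exporters were called in either comparison.

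Against sham, more zinc transporters were called in the depleted mice, as were more of all genes. In mesenchyme, where 15.2% of all genes were called, 3 of 11 importers rose and 1 fell, and 0 of 5 exporters were called. Slc39a8 went from 121.8 to 342.3, Slc39a4 from 5.48 to 17.85 and Slc39a1 from 1418 to 1840, while Slc39a10 went from 453.1 to 356.6. The limit given for the low sham values of Slc39a4 holds here too. In epithelium (11.3% of all genes called) 1 of 10 importers rose, Slc39a10 (0.37 ± 0.0921), a count near the share over all genes. There 2 of 6 exporters fell, Slc30a2 (-0.82 ± 0.223) and Slc30a7 (-0.30 ± 0.0691). Leaving out 1 library gave 3 to 5 called importers in mesenchyme and 1 to 2 called exporters in epithelium.

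Among iron and copper genes, 4 of 18 rose between depleted and irradiated mesenchyme, beside 2.69% of all genes called. They were the metalloreductase Steap4 (1.16 ± 0.115), the iron importer Slc11a2 (0.58), the ferritin heavy chain gene Fth1 (0.53) and Cp, which encodes ceruloplasmin (0.48). Of 26 genes of peroxide and thiol defence 3 rose there: the peroxiredoxins Prdx3 (0.58 ± 0.14) and Prdx5 (0.54 ± 0.073), and Nxn (0.51 ± 0.0681), a thioredoxin-fold protein. Of 10 superoxide sources 1 rose, Xdh (0.80 ± 0.184), which encodes xanthine dehydrogenase. With 1 library left out the counts were 3 to 5, 2 to 3 and 0 to 2, and the count of superoxide sources changed in 11 of 12 such fits. For epithelium none of these 3 lists had a called gene in depleted against irradiated.

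Genes known to respond to glucocorticoids or cytokines were counted in the same way, beside the same 2.69%. Between depleted and irradiated mesenchyme 3 of 15 glucocorticoid-responsive genes rose, Lcn2 from 91.9 to 1439, Ddit4 (0.86) and Cebpd (0.62), with a list median of 0.69. Of 15 STAT3 feedback and target genes 7 rose, led by Timp1 (1.61 ± 0.144), Lrg1 (1.34 ± 0.328), Il1r1 (0.93) and Il4ra (0.77), with a median of 0.46. Of 15 NF-kB genes 5 rose, led by Tnfaip2 (0.64), Tnfaip3 (0.60), Ier3 (0.47) and Birc3 (0.34), with a median of 0.15. The epithelial table had a single called gene of these lists in that comparison, Timp1 (2.05 ± 0.392), beside 0.475% of all genes called.

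These counts depended on single libraries. With 1 library left out, the mesenchymal counts were 2 to 7 for the glucocorticoid list (7 without depleted replicate 3), 4 to 7 for STAT3 (4 without depleted replicate 1 or 4) and 0 to 5 for NF-kB (0 without depleted replicate 4). The NF-kB count changed by over 1.5 times in 10 of 12 such fits, and the epithelial STAT3 count of 1 changed in 9 of 12, to 0 or 2. The lists overlap in part and were chosen with results of these data known.

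After irradiation alone, fewer genes were called in mesenchyme than between depleted and irradiated mice in each of these lists except superoxide sources. In epithelium more genes of these lists were called, as were more of all genes (3.14% beside 0.475%). In mesenchyme (3.8% of all genes called) Steap4 (0.59) rose among iron and copper genes, and Ncf4 (1.87) and Ncf1 (1.23), subunits of the phagocyte oxidase, rose among superoxide sources. Ddit4 (1.51) rose among glucocorticoid-responsive genes, Lrg1 (1.39), Timp1 (0.86), Icam1 (0.75) and Stat3 (0.53) among STAT3 genes, and Icam1, Nfkbie (0.48), Relb (0.38) and Nfkbia (0.28) among NF-kB genes. In epithelium (3.14% called) Cybb (1.74), another oxidase subunit, and Fgl2 (0.76) rose, and Gpx8 (-0.38) and Il1r1 (-0.40) fell. The oxidase subunits are expressed in leukocytes, whose markers were higher in the same libraries, and the part of leukocytes was not tested here.

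Against sham, 15.2% of all genes were called in the depleted mesenchyme. Beside that share, 6 of 18 iron and copper genes rose, led by Steap4 (1.75), Atp7b (1.10), Slc11a2 (0.57) and Cp (0.48). Atp7b was low, at 26.08 in sham and 57.11 in depleted libraries. The mean log2 level of epithelial markers in the same libraries went from 5.81 to 6.77. The part of epithelial cells in the Atp7b change was not tested. Of 26 peroxide and thiol genes 4 rose, Prdx5 (0.67), Txnip (0.52), Nxn (0.42) and Glrx (0.41), a count near the share over all genes. Xdh (1.12) rose and Nox4 (-0.48) fell among 10 superoxide sources. Of 15 glucocorticoid-responsive genes 10 rose, led by Lcn2 (5.93), Ddit4 (2.37), Fkbp5 (2.36) and Map3k6 (1.77), and Nr3c1, the glucocorticoid receptor gene, fell (-0.57). Of 15 STAT3 genes 12 rose, led by Lrg1 (2.73), Timp1 (2.48), Bcl3 (1.13) and Il4ra (1.09). Of 15 NF-kB genes 10 rose, led by Tnfaip2 (1.09), Tnfaip3 (0.97), Ier3 (0.89) and Icam1 (0.76).

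In the depleted epithelium 11.3% of all genes were called against sham. Beside that share, Steap4 (0.67), Slc31a1 (0.38) and Atp7b (0.35) rose among 18 iron and copper genes. This count of 3 fell to 1 in single left-out fits. Prdx6 (0.75) and Msrb3 (0.29) rose and Msrb2 (-0.54), Gpx8 (-0.41) and Txnrd3 (-0.39) fell among 26 peroxide and thiol genes. Cybb (1.43) and Xdh (0.49) rose and Aox1 (-0.30) fell among 9 superoxide sources. Of 15 glucocorticoid-responsive genes 7 rose, led by Pdk4 (2.02), Map3k6 (1.78), Lcn2 (1.32) and Per1 (1.11). Of 15 STAT3 genes 8 rose, led by Timp1 (3.52), Fgl2 (0.77), Socs3 (0.63) and Il6ra (0.54), and Il1r1 fell (-0.36). Of 15 NF-kB genes 2 rose, Tnfaip2 (0.81) and Nfkbiz (0.25), a count near the share over all genes. Whether the fractions differ in these counts was not tested.

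Mean levels of other cell types' markers were higher after irradiation in both fractions, but no permutation test passed at an adjusted p under 0.05. The mean log2 level of 14 leukocyte markers was 4.95 in sham, 6.05 in irradiated and 5.78 in depleted epithelial libraries, and 5.38, 6.50 and 6.07 in mesenchymal ones. For irradiated against sham the exact two-sided permutation p was 0.0286 in each table, the smallest that 70 assignments allow (0.0707 adjusted over 42 tests). Summed over the leukocyte markers, mesenchymal counts lay between 527.2 and 1342 for sham, between 1394 and 3023 for irradiated and between 1026 and 2243 for depleted libraries, with no marker at 0 throughout. The epithelial sums (3089 to 3490, 3306 to 4345 and 2619 to 3577) were mostly Lcp1, which averaged 2808, 2827 and 2375, whereas Ptprc, which encodes CD45, averaged 68.4, 184.9 and 130.2. Endothelial marker levels were also higher after irradiation (6.44 to 7.34 in the epithelial and 7.01 to 8.03 in the mesenchymal table). The exact permutation p was 0.0286 in each (0.0707 adjusted). Neutrophil marker levels went from 2.04 to 3.61 and from 2.77 to 4.11. Macrophage marker levels went from 3.44 to 4.72 and from 3.84 to 5.23. Both lists had the same exact permutation p of 0.0286 (0.0707 adjusted) in each table. Epithelial markers in the mesenchymal table went from 5.81 to 6.68 (exact permutation p = 0.0286, 0.0707 adjusted), and their level in depleted libraries was 6.77. Mesenchymal markers in the epithelial table were at 8.89 in sham, 9.10 in irradiated and 9.15 in depleted libraries. For depleted against sham their exact permutation p was 0.0286 (0.0707 adjusted). Of these 14 markers 5 rose in that comparison by the limma test, beside 11.3% of all genes called. The part of these cells in the changes was not tested beyond the leukocyte covariate.

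Between depleted and irradiated mice the leukocyte marker level differed by -0.275 in the epithelial table (exact permutation p = 0.371) and by -0.43 in the mesenchymal table (p = 0.286, exact). Of 10 neutrophil markers tested in the mesenchyme, 2 fell in that comparison, where 2.69% of all genes were called. They were Csf3r, from 145.3 to 24.65, and Cxcr2, from 27.66 to 9.56. Other markers of the list had higher means in depleted mice, among them S100a8 (60.49 and 102.6), Ngp (15.95 and 52.5), Ltf (33.08 and 72.71) and Mmp8 (14.2 and 37.42), which did not pass the test. The median change of the list was -0.05, and its mean level was 4.11 in irradiated and 4.26 in depleted libraries (exact permutation p = 0.571). Ly6g, which encodes the target of the antibody, averaged at most 2.42 in any group, near the limit a count of 0 allows, so it cannot check the depletion. With that covariate Mt2, Slc39a14 and Sod2 remained called in depleted against irradiated mesenchyme, as they did in all 22 alternatives run for each.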

How the data were processed

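Cells sorted from mouse lungs gave 24 ribosomal RNA-depleted libraries in 6 groups of 4. Per the submitters' processing notes the authors used cutadapt 1.5, STAR 2.2.2a, SAMtools 1.8, RSEM 1.3.0 and DESeq2 with the build GRCm38; the annotation release is not given in the sources used here. The deposited tables, 1 per fraction, hold a signal: gene counts normalised by 1 factor per library. Symbols, positions and exon lengths came from GENCODE M21 (GRCm38).

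Whole reads were recovered from the value steps (tolerance 0.001) and served edgeR 4.0.16 and DESeq2 1.42.0 as alternatives; for mesenchymal sham replicate 3 and depleted replicate 4 the step was too near 1 to tell. The main test was limma 3.58.1 (trend, robust; R 4.3.3) on log2(normalised count + 1), with the 3 groups of a table in 1 fit, for genes at 10 or more in at least 4 of 12 libraries (16626 epithelial, 16624 mesenchymal). Alternatives were other pseudocounts, filters and scalings, edgeR, DESeq2, a leukocyte covariate, a replicate block, 2 groups alone, each library left out and, for levels per kb, another transcript length, added after the data were seen. Scripts were tested on simulated data.

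The 9 members, the gene lists and the tests were chosen with earlier results of these data known. Named were the 9 genes, with up to 4 called genes per list by size of change and the 5 genes most like Mt1 and Sod2 in each table, at a mean of at least 50 and without predicted genes and pseudogenes. The series' design text gives 4 mice per group.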

Additional observations from a re-analysis of the deposited data

Results flagged for a closer look

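The response to depletion against irradiated mice differed between the fractions for 2 genes, out of 18 differences tested in the 24-library limma fit. The epithelial minus mesenchymal difference was -1.48 on the log2 scale for Slc39a14 and -1.04 for Sod2, with every depleted mesenchymal library above every irradiated one for both genes. A single library stood apart from the rest of its group in 2 of 54 groups of 4, by Dixon's gap test, which chance gives in about 1 of 20 groups. Mtf1 was at 378.6 in epithelial sham replicate 1, above the other 3 sham libraries (321.5 to 327.8). Sod3 was at 659.5 in epithelial irradiated replicate 3, above the other 3 irradiated libraries (521.6 to 533.7).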

How the results depend on the processing

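Of 1782 member changes under the alternatives, 1702 kept their direction and their side of the threshold, 31 lost a call, 23 gained one and 26 changed sign; the causes were not tested. In irradiated against sham epithelium, 522 genes and 1 member were called. DESeq2 gave 816 and 3, the leukocyte covariate 42 and 0, edgeR 2 members and the 2 groups alone 2 members; leaving out 1 library gave 220 to 654 genes and 0 to 2 members. In depleted against irradiated epithelium (79 genes, 1 member), a mean of at least 50 gave 52 genes, edgeR 131 and 2 members, DESeq2 288 and 3, and the 2 groups alone 32 and 0; a pseudocount of 8 and no filter gave 2 members each, and leaving out 1 library gave 36 to 197 genes and 1 to 3 members. Depleted against sham epithelium (1876 genes) gave 329 with the covariate and 1187 to 1945 with 1 library left out.

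In irradiated against sham mesenchyme (631 genes, 1 member), DESeq2 gave 1055 and 2, edgeR 2 members, no filter 0 members, the covariate 49 and 0, and the 2 groups alone 3 members; leaving out 1 library gave 182 to 1071 genes and 0 to 2 members. Depleted against irradiated mesenchyme (448 genes, 5 members) gave 792 genes with DESeq2, 244 with the covariate and 291 with the 2 groups alone, and 175 to 799 genes and 3 to 5 members with 1 library left out; 3 members were called without depleted replicate 1. Depleted against sham mesenchyme (2528 genes) gave 1377 with the covariate and 1571 to 2720 with 1 library left out. The response difference to irradiation (95 genes) gave 163 with edgeR, 434 with DESeq2, 2 with the covariate and 48 to 334 with 1 library left out. That to depletion (90 genes, 2 members) gave 59 with no filter, 160 with DESeq2, 49 genes and 1 member with the covariate, and 39 to 141 genes with 1 library left out.

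By these correlations the replicate numbers could not be taken to pair the samples: inside a table at most 1 of 4 same-numbered pairs had deviations that correlated above 0.1 (-0.111 to 0.172), and at most 4 of 8 libraries correlated best with their own number. Between the fractions, same-numbered irradiated libraries correlated more closely (0.06 to 0.255, against -0.187 to 0.099 for other numbers; 3 of 4 above 0.1, 7 of 8 best with their own number). The last count was 6 of 8 for depleted and 3 of 8 for sham libraries, a hint from the data and not from the design. With the replicate block, 2 members were called in depleted against irradiated epithelium, 1048 genes and 2 members in irradiated against sham mesenchyme, and 211 genes in the response difference to irradiation. The depletion response differences of Slc39a14 and Sod2 remained called with the block.

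Changes of sign were found only among changes that were not called. With the covariate they were Mtf1 at 0.0013 in depleted against irradiated epithelium, Sod1 at 0.0899 in irradiated against sham mesenchyme (0.0034 with DESeq2), Sod3 at -0.0281 in depleted against irradiated mesenchyme, Slc30a1 at -0.0528 in depleted against sham mesenchyme and Slc30a1 at 0.1032 in the response difference to irradiation. With 1 library left out, depleted against irradiated epithelium ranged from -0.099 to 0.0662 for Mtf1, -0.0555 to 0.0647 for Sod1 and -0.0476 to 0.1295 for Sod2. Irradiated against sham mesenchyme ranged from -0.055 to 0.0457 for Sod1 and -0.094 to 0.0643 for Txn1, and depleted against irradiated mesenchyme from -0.0247 to 0.133 for Sod3. The response difference to irradiation ranged from -0.2393 to 0.0242 for Mt1 and from -0.1608 to 0.01 for Slc30a1. Levels per kb of Slc39a14, Mtf1, Sod1 and Sod2 depend on the transcript length chosen, a choice added after the data were seen.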
